A study of Homo sapiens with 18 samples.

Results

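The alpha-arrestin genes TXNIP, ARRDC1, ARRDC2, ARRDC3 and ARRDC4 were described across all groups of an RNA sequencing series in RPE-1 cells, a retinal pigment epithelial line immortalized with hTERT. The 5 members were taken by name from a gene table of 33121 rows, by a choice of family made with earlier results of these data known. The 18 libraries formed 6 groups of 3. Every group was transfected for 2 days with Lipofectamine RNAiMax. The siRNA was a control (siControl, tagged siLuci in the library names), one targeting MLX (siMlx) or one targeting MLXIP, which encodes MondoA (siMondoA). They were then left untreated or given 150 ng/ml doxorubicin (DXR), a drug that damages DNA, for 3 days. The labels give neither the siRNA sequences nor how many siRNAs targeted a gene, so an effect of the target's loss and any other effect of an siRNA cannot be told apart. Untreated libraries are tagged D0 in their names and DXR libraries D5, so DXR and a difference in harvest day cannot be told apart. Nothing in the labels says that replicates were separate cultures, so the spread behind each p-value may be technical.

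Alpha-arrestins share the arrestin fold with the beta-arrestins that bind activated receptors. Most carry short proline- and tyrosine-containing motifs that bind the WW domains of NEDD4-family ubiquitin ligases, and they bring those ligases to membrane cargo such as nutrient transporters and receptors. TXNIP is the member that also binds thioredoxin, and it limits glucose uptake by driving glucose transporters into the cell. MondoA pairs with MLX, senses glucose 6-phosphate, and binds carbohydrate response elements, pairs of E-box-like words a fixed distance apart. TXNIP and ARRDC4 are the textbook targets of that pair, whereas ARRDC1, ARRDC2 and ARRDC3 are not usually counted among them.

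The promoters of TXNIP and ARRDC4 are shown because these genes are the textbook targets of MondoA and MLX. Of their windows the TXNIP one held the paired words and the ARRDC4 one a lone E-box. RefSeq windows on GRCh38.p14 were found for all 5 members, with more than one start for TXNIP, ARRDC2 and ARRDC3. Each sequence is the 250 bases before the start, 5′ to 3′ along the gene, from chr1:145996580-145996829 on the minus strand for TXNIP (upstream start) and from chr15:97960453-97960702 on the plus strand for ARRDC4. Capitals mark the paired words in TXNIP and the perfect E-box in ARRDC4.
TXNIP: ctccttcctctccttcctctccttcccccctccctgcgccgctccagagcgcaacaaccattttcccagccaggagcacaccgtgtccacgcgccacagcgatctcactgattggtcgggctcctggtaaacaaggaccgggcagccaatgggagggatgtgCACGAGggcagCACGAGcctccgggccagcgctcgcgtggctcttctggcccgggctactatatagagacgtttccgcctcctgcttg
ARRDC4: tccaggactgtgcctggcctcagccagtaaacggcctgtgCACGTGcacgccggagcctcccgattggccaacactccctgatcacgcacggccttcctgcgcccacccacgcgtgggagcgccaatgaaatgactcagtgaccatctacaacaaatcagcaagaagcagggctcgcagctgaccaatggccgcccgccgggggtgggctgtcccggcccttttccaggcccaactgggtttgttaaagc
The words searched on both strands were the half-site CACGNG, the perfect E-box CACGTG (which is also a half-site), the pair of half-sites in the same orientation with 5 bases between them, and the CCAAT box. TXNIP held 1 pair, from 88 to 72 bases before the start, with CCAAT boxes beginning 140 and 105 bases before it. Of 35116 windows of this length in the table, 16 held such a pair (0.0456%). ARRDC4 held no pair with this orientation and spacing. Pairs of half-sites in opposite orientation or at another spacing were not searched, so a window without a pair may still hold those forms. It held 1 perfect E-box, 210 to 205 bases before the start, a word found in 6.34% of windows, and 3 CCAAT boxes, a word found in 32% of windows. It also held 2 overlapping half-sites between 142 and 135 bases before the start. The windows of ARRDC1, ARRDC2 and ARRDC3, and that of the downstream TXNIP start, held neither a pair nor a perfect E-box. Half-sites were not particular to the textbook targets. The upstream ARRDC2 window held 3 and the downstream ARRDC3 window 1, beside 3 for ARRDC4 and 4 for the upstream TXNIP start. Half-sites occurred in 26.7% of windows. A match is a run of letters, not a measured site of binding.

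**Figure D1:**
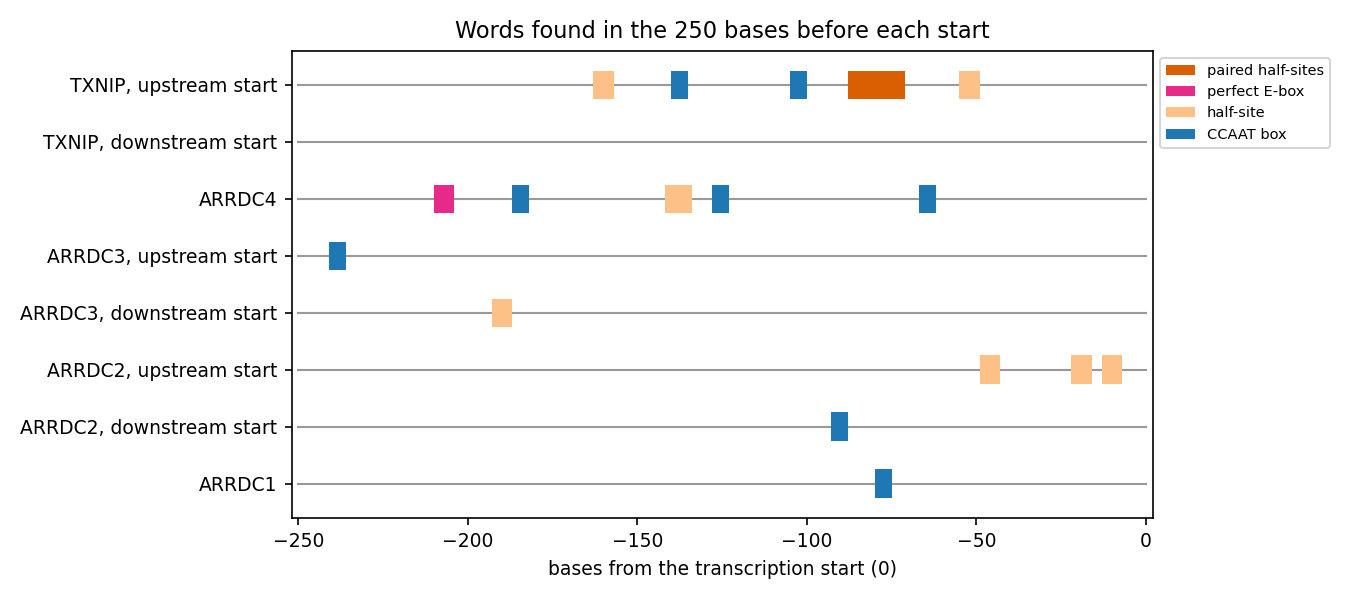
Positions of the searched words in the 250 bases before each RefSeq start of the 5 alpha-arrestin genes, in bases from the start; each bar spans one word on either strand, and a pair or perfect E-box is drawn over its half-sites. The pair appears only at the upstream TXNIP start and the perfect E-box only at ARRDC4.

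Total counts per library ran from 15503423 to 29219280. MLXIP fell from 68.7 ± 4.64 CPM (SD, n = 3) to 3.85 ± 0.646 with siMondoA in untreated cells and from 64.6 ± 1.73 to 2.36 ± 0.648 in DXR cells. MLX fell from 26.3 ± 0.955 to 7.0 ± 0.182 CPM with siMlx and from 26.5 ± 0.213 to 5.52 ± 0.53 with DXR, so siMlx left 26.7% and 20.8% of its target's RNA where siMondoA left 5.7% and 3.67%. MLX shares exon bases with PSMC3IP on the other strand, which had 2012 counts in all against 9628. MLX rose 1.87-fold with siMondoA in untreated cells and 1.65-fold in DXR cells. DXR raised the p53 target CDKN1A by 3.34 on the log2 scale with siControl. Among the fixed markers of retinal pigment epithelium, MITF (17.5 to 35.2 CPM) and OTX2 (10.7 to 25.0 CPM) were present, while RPE65, RLBP1, TYR and TTR, which define the mature tissue, stayed at or below 0.698 CPM. BEST1 and PMEL, the other 2 of that list, reached 1.45 and 0.661 CPM. Of the 5 simple-epithelium markers the keratins KRT8 and KRT18 stood at 218 CPM or more and 106 CPM or more, whereas KRT19, CDH1 and EPCAM stayed at or below 0.386 CPM. Of the 8 fibroblast markers COL1A1, THY1, PDGFRB and PDGFRA stood at or above 71.5, 169, 43.3 and 8.32 CPM, DCN ranged from 0.404 to 13.1 CPM, and COL1A2, COL3A1 and LUM stayed at or below 1.07 CPM. Among blood and endothelial markers VWF reached 2.35, PTPRC 1.68, PECAM1 0.629 and CD14 0.386 CPM, and CD3E and CDH5 did not pass 0.204 CPM.

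Marker levels moved with both DXR and the siRNAs. The summed level of the 8 fibroblast markers ranged from 380 to 563 CPM in the untreated libraries and from 631 to 944 CPM in the DXR libraries. With siControl the mean of THY1 went from 272 to 471.5 CPM on DXR, COL1A1 from 97.52 to 210.8 and DCN from 0.9624 to 5.416. PDGFRB went the other way, from 101.3 to 77.8 CPM, as did PDGFRA, from 15.15 to 10.19. The summed level of the 5 simple-epithelium markers ranged from 324 to 790 CPM in untreated and from 941 to 1349 CPM in DXR libraries. With siMlx the summed level of the 8 retinal pigment epithelium markers was 32.8 to 38.6 CPM against 53.4 to 57.6 with siControl in untreated cells, and 32.7 to 35.0 against 45.0 to 49.7 in DXR cells. The simple-epithelium sum was 324 to 422 with siMlx against 497 to 688 CPM, and 941 to 1017 against 1119 to 1171 with DXR. None of these siMlx ranges overlapped those of siControl. In untreated cells MITF fell by 0.75 with siMlx, OTX2 by 0.46, KRT8 by 0.40 and KRT18 by 0.99 on the log2 scale (edgeR, adjusted p = 4.57e-07, 0.000575, 0.00339 and 1.16e-05). With siMondoA the fibroblast sum was 380 to 432 against 455 to 524 CPM in untreated cells. Its members went both ways. THY1 fell by 0.66 and PDGFRB by 0.71 on the log2 scale, while PDGFRA rose by 1.11 and DCN by 1.03. COL1A1 was at 0.46 (edgeR, adjusted p = 0.0907). The simple-epithelium sum with siMondoA was 1269 to 1349 against 1119 to 1171 CPM in DXR cells. The part of these shifts in the results with DXR and with either siRNA was not tested.

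TXNIP, the thioredoxin-binding member (chromosome 1, 145992435 to 145996600, minus strand, GRCh38), rose with DXR and fell with either siRNA. In CPM (counts scaled to library size with TMM), its level in the untreated siControl libraries was 10.9, 10.9 and 17.6. With siMlx it was 1.18, 2.22 and 3.13, and with siMondoA 1.39, 1.26 and 0.907. In DXR-treated cells the siControl libraries stood at 52.5, 66.7 and 69.8 CPM, the siMlx libraries at 6.40, 13.3 and 8.64, and the siMondoA libraries at 4.16, 3.85 and 4.85. Every siControl library was above every knockdown library of the same condition, and every DXR library was above every untreated library of the same siRNA.

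Tested over 13676 genes with edgeR (quasi-likelihood, Benjamini-Hochberg), TXNIP fell by 3.46 on the log2 scale with siMondoA in untreated cells (SE 0.32, adjusted p = 3.56e-08), to 9.09% of control. It fell by 3.88 in DXR cells (SE 0.243, adjusted p = 4.18e-10), to 6.8%. With siMlx it fell by 2.59 (SE 0.287, adjusted p = 3.61e-07), to 16.6%, and in DXR cells it changed by -2.72 (SE 0.218, adjusted p = 1.2e-08), to 15.1%. In bulk RNA, fewer cells with the transcript and less RNA per cell cannot be told apart. DXR raised TXNIP 4.76-fold with siControl (log2 2.25, SE 0.205, adjusted p = 2.45e-08), 3.56-fold with siMondoA (log2 1.83, SE 0.383, adjusted p = 0.000493) and 4.33-fold with siMlx (log2 2.11, SE 0.303, adjusted p = 5.39e-06). No difference in the fold rise between siRNAs was detectable. The interaction of siMondoA with DXR was -0.42 on the log2 scale (95% interval -1.39 to 0.55, adjusted p = 0.641) and that of siMlx -0.14 (-0.95 to 0.67, adjusted p = 0.869).

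The siMondoA libraries had less TXNIP than the siMlx libraries in DXR cells, by 1.15 on the log2 scale (SE 0.271, adjusted p = 0.00206), with no overlap. In untreated cells the difference was -0.87 (SE 0.432, adjusted p = 0.0915). It did not pass the test and the libraries overlapped, at 1.18 CPM for the lowest siMlx library and 1.39 CPM for the highest siMondoA library. In 6 alternatives this untreated difference passed, with adjusted p from 0.000189 to 0.0478, the last with the replicate number as a block. In order of level, TXNIP was highest in DXR siControl cells, followed by untreated siControl, DXR siMlx, DXR siMondoA, untreated siMlx and untreated siMondoA. The second and the third groups of that order overlapped, as did the last pair. DXR-treated cells with siMondoA stood at 4.28 ± 0.511 CPM (SD, n = 3), below the 13.2 ± 3.87 CPM of untreated siControl cells.

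**Figure D2:**
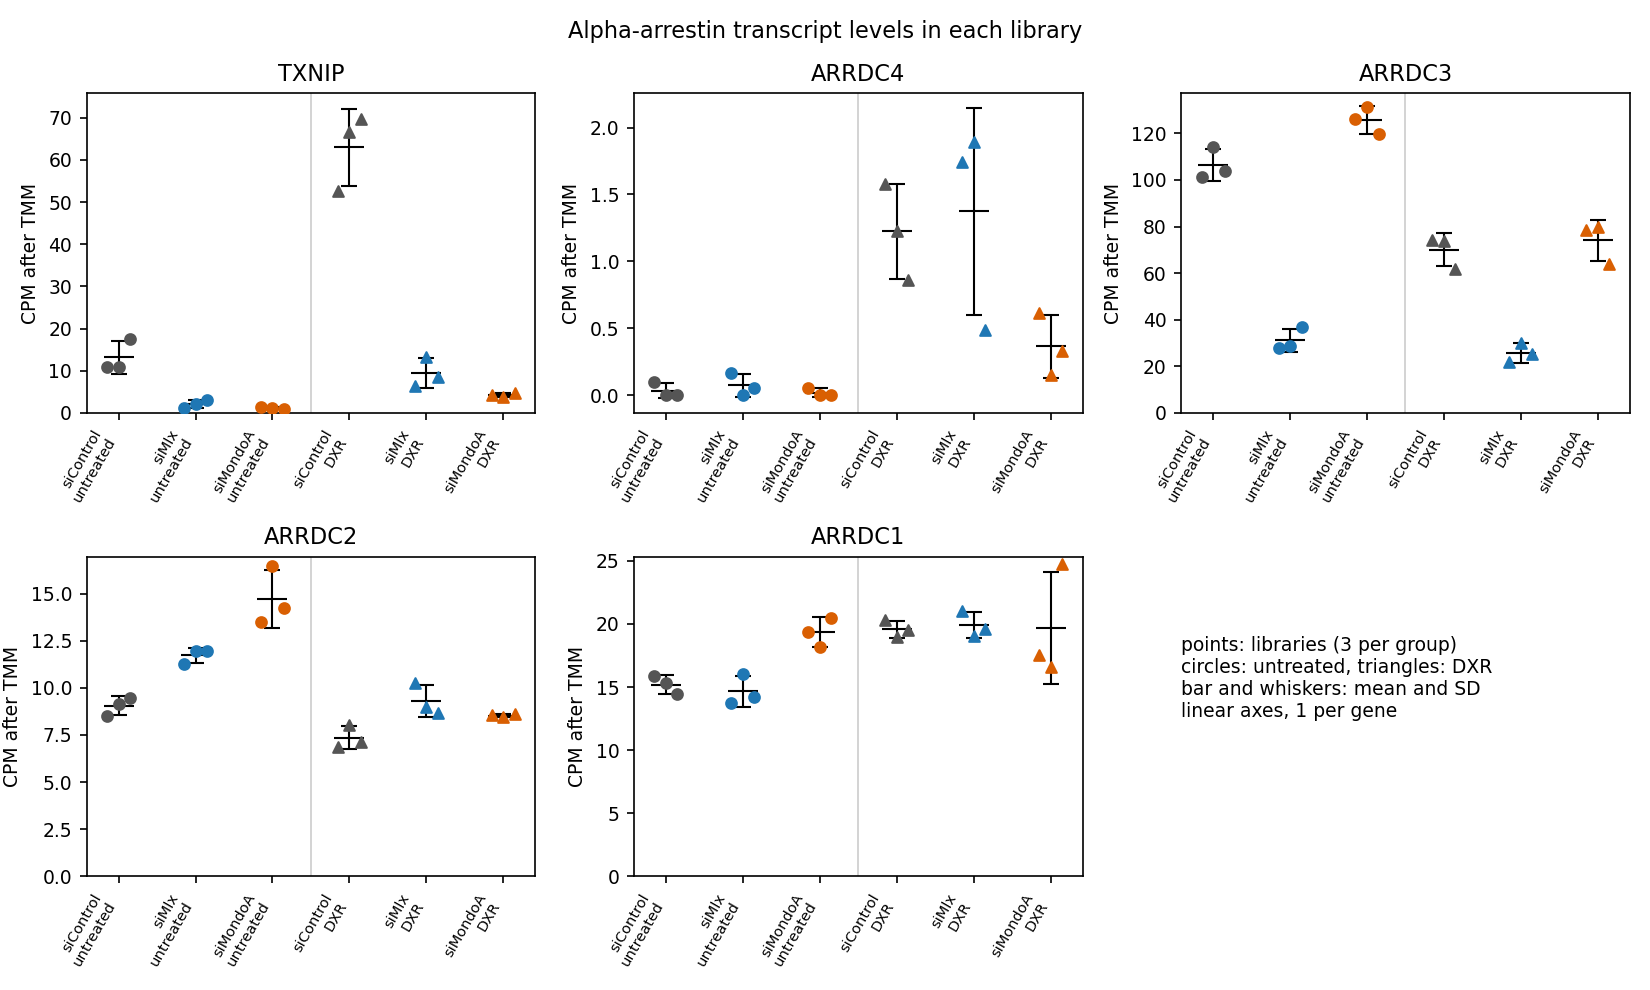
CPM after TMM of each alpha-arrestin gene in the 18 libraries (points), with the mean and SD of each group of 3; each panel has its own linear axis. TXNIP stands at 52.5 to 69.8 CPM in DXR siControl cells and at 0.907 to 17.6 CPM in every other group, and ARRDC3 is lowest in both siMlx groups.

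ARRDC4, the closest relative of TXNIP and like it a brake on glucose uptake (chromosome 15, 97960698 to 97973838, plus strand), was near the detection limit in untreated cells and appeared with DXR. It was counted 3, 0 and 0 times in the untreated siControl libraries, 3, 0 and 1 times with siMlx and 1, 0 and 0 times with siMondoA. With DXR the siControl libraries had 31, 24 and 18 counts, the siMlx libraries 30, 38 and 9, and the siMondoA libraries 11, 3 and 6. The gene passed the low-count filter through its DXR groups. The counts summed to 3 in untreated siControl cells and 73 in DXR siControl cells, a ratio scaled to library size of 31.3 (exact 95% interval 10.3 to 155, which covers counting error only). The rise passed edgeR's test with siControl (adjusted p = 3.29e-05), with siMlx (77 against 4 counts, ratio 19.6, 7.35 to 73.7, adjusted p = 8.04e-05) and with siMondoA (20 against 1, ratio 20.9, 3.35 to 868, adjusted p = 0.0119). The siMondoA call was lost without untreated siMondoA replicate 2 (adjusted p = 0.053) or DXR siMondoA replicate 1 (0.0587). All 3 counts of the untreated siControl group came from replicate 1.

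In DXR cells siMondoA lowered ARRDC4 to 20 counts against 73, a ratio of 0.295 (0.17 to 0.489), and no siMondoA library reached the lowest siControl library. This passed edgeR's test (log2 -1.74, SE 0.557, adjusted p = 0.0267). It did not pass without siControl replicate 1 (adjusted p = 0.0986) or 2 (0.0589) or siMondoA replicate 2 (0.122) or 3 (0.0744), nor with limma on log2(RPKM + 0.01) (0.0872). With siMlx the counts were 77 against 73, a ratio of 1.13 (0.813 to 1.58, adjusted p = 0.811). The difference between the 2 knockdowns was itself past the test (siMondoA against siMlx, ratio 0.26, 0.151 to 0.43, adjusted p = 0.00924), although siMlx replicate 3, at 9 counts, fell below siMondoA replicate 1, at 11. That call too was lost without siMlx replicate 2 (0.0552) or siMondoA replicate 2 (0.0539), and with limma on log2(RPKM + 0.01) (0.0669). In untreated cells 1 count (siMondoA) and 4 counts (siMlx) against 3 give ratios of 0.441 (0.00841 to 5.5) and 1.81 (0.307 to 12.4), so that no change was detectable at this depth.

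ARRDC3, which helps turn over beta-adrenergic receptors and integrin beta 4 (chromosome 5, 91368724 to 91383359, minus strand), was lower with siMlx, and siMondoA did not lower it. Untreated siControl libraries stood at 101, 114 and 104 CPM, siMlx libraries at 27.7, 28.9 and 36.7 and siMondoA libraries at 126, 131 and 119.7. In DXR cells the siControl libraries stood at 74.1, 74.0 and 61.8 CPM, the siMlx libraries at 21.7, 30.2 and 25.3 and the siMondoA libraries at 78.5, 80.0 and 64.1. The siMlx libraries lay below all others of their condition, and siControl and siMondoA overlapped with DXR. In the same siMlx libraries the summed retinal pigment epithelium and simple-epithelium markers were also below the siControl range, in both conditions.

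With siMlx in untreated cells, ARRDC3 fell to 29.3% of control (log2 -1.77, SE 0.115, adjusted p = 1.68e-10) and to 36.9% in DXR cells (log2 -1.44, SE 0.118, adjusted p = 1.69e-08). With siMondoA the difference was 0.24 in untreated cells (95% interval 0.02 to 0.47, adjusted p = 0.0697; with the replicate number as a block, adjusted p = 0.045) and 0.09 in DXR cells (-0.14 to 0.32, adjusted p = 0.624). The untreated difference also passed with upper-quartile scaling (0.034), without the low-count filter (0.00693) and in a fit of the compared groups alone (0.00891). Compared with each other, siMondoA exceeded siMlx by 2.02 (SE 0.116, adjusted p = 1.56e-11) and, with DXR, by 1.53 (SE 0.118, adjusted p = 3.96e-09). DXR lowered ARRDC3 to 65.8% with siControl (log2 -0.60, SE 0.109, adjusted p = 9.46e-05) and to 59% with siMondoA (log2 -0.76, adjusted p = 8.8e-06). With siMlx its change was -0.27 (95% interval -0.53 to -0.01, adjusted p = 0.062), which passed in 6 alternatives (0.00161 to 0.0411). ARRDC3 shares 145 exon bases with ARRDC3-AS1, an antisense gene, and whether counting used strand is not given in the sources used here. ARRDC3-AS1 had 502 counts in all libraries together against 27068 for ARRDC3.

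ARRDC2, a less studied member that also binds NEDD4-family ligases (chromosome 19, 18001132 to 18014102, plus strand), rose with either siRNA in untreated cells and fell with DXR. Untreated siControl libraries stood at 8.49, 9.17 and 9.49 CPM, siMlx at 11.3, 11.97 and 11.95 and siMondoA at 13.5, 16.5 and 14.2. With DXR they stood at 6.88, 8.04 and 7.14, at 10.2, 9.01 and 8.64, and at 8.53, 8.46 and 8.59. In both conditions every knockdown library was above every siControl library. In untreated cells it rose with siMondoA to 163% of control (log2 0.71, SE 0.0943, adjusted p = 4.17e-06) and with siMlx to 130% (log2 0.38, SE 0.0961, adjusted p = 0.00307). Untreated siMondoA exceeded siMlx by 0.33 (adjusted p = 0.00527; 0.0563 without siMondoA replicate 2).

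In DXR cells ARRDC2 rose with siMlx (log2 0.34, SE 0.103, adjusted p = 0.0175), while the siMondoA difference was 0.21 (95% interval -0.003 to 0.43, adjusted p = 0.146). The siMlx call was lost without siControl replicate 1 (0.0764) or 3 (0.0572) or siMlx replicate 1 (0.0766), without the low-count filter (0.0588) and in the compared groups alone (0.0577). DXR lowered ARRDC2 with siControl (log2 -0.30, SE 0.1, adjusted p = 0.0162), with siMlx (-0.34, adjusted p = 0.00574) and with siMondoA (-0.79, SE 0.0977, adjusted p = 1.42e-06). The siControl call was lost without untreated replicate 3 (0.0627) or DXR replicate 1 (0.0686) or 3 (0.052). The interaction of siMondoA with DXR was -0.49 (SE 0.14, 95% interval -0.79 to -0.20, adjusted p = 0.0301), so the fall with DXR was larger with siMondoA than with siControl. That call was lost in 8 alternatives, with adjusted p from 0.0502 to 0.113. Among them were leaving out untreated siControl replicate 1, untreated siMondoA replicate 2, DXR siControl replicate 2 or any one DXR siMondoA replicate. ARRDC2 shares 442 exon bases with AC020904.3 on the other strand, which was not found among the genes listed.

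ARRDC1, the member that recruits TSG101 and buds vesicles from the plasma membrane (chromosome 9, 137605654 to 137615360, plus strand), rose with siMondoA in untreated cells and with DXR under siControl and siMlx. Untreated siControl libraries stood at 15.9, 15.3 and 14.4 CPM, siMlx at 13.8, 16.0 and 14.2 and siMondoA at 19.4, 18.2 and 20.5. With DXR they stood at 20.3, 18.9 and 19.5, at 21.0, 19.1 and 19.6, and at 17.6, 16.6 and 24.7. The untreated siMondoA libraries and all DXR groups thus formed an upper band, within which neighbouring groups overlapped. The rise with siMondoA in untreated cells was 0.34 (SE 0.112, adjusted p = 0.0158). This was lost without siControl replicate 3 (0.0601) or siMondoA replicate 3 (0.0586). The rise with DXR was 0.37 with siControl (SE 0.111, adjusted p = 0.00878) and 0.44 with siMlx (adjusted p = 0.00249). The siMlx differences were -0.05 (95% interval -0.29 to 0.19) and, with DXR, 0.02 (-0.21 to 0.26), and the siMondoA difference in DXR cells was 0.00 (-0.23 to 0.24). With siMondoA the change on DXR was 0.02 (-0.21 to 0.26, adjusted p = 0.877), and the interaction of siMondoA with DXR was -0.34 (adjusted p = 0.188), or -0.54 (adjusted p = 0.00791) without DXR siMondoA replicate 3, its highest library. ARRDC1 shares 29 exon bases with the antisense gene ARRDC1-AS1, listed as C9orf37, which had 3179 counts in all against 6502 for ARRDC1. It also shares 183 exon bases with AL590627.2 on the same strand, which was not found among the genes listed.

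**Figure D3:**
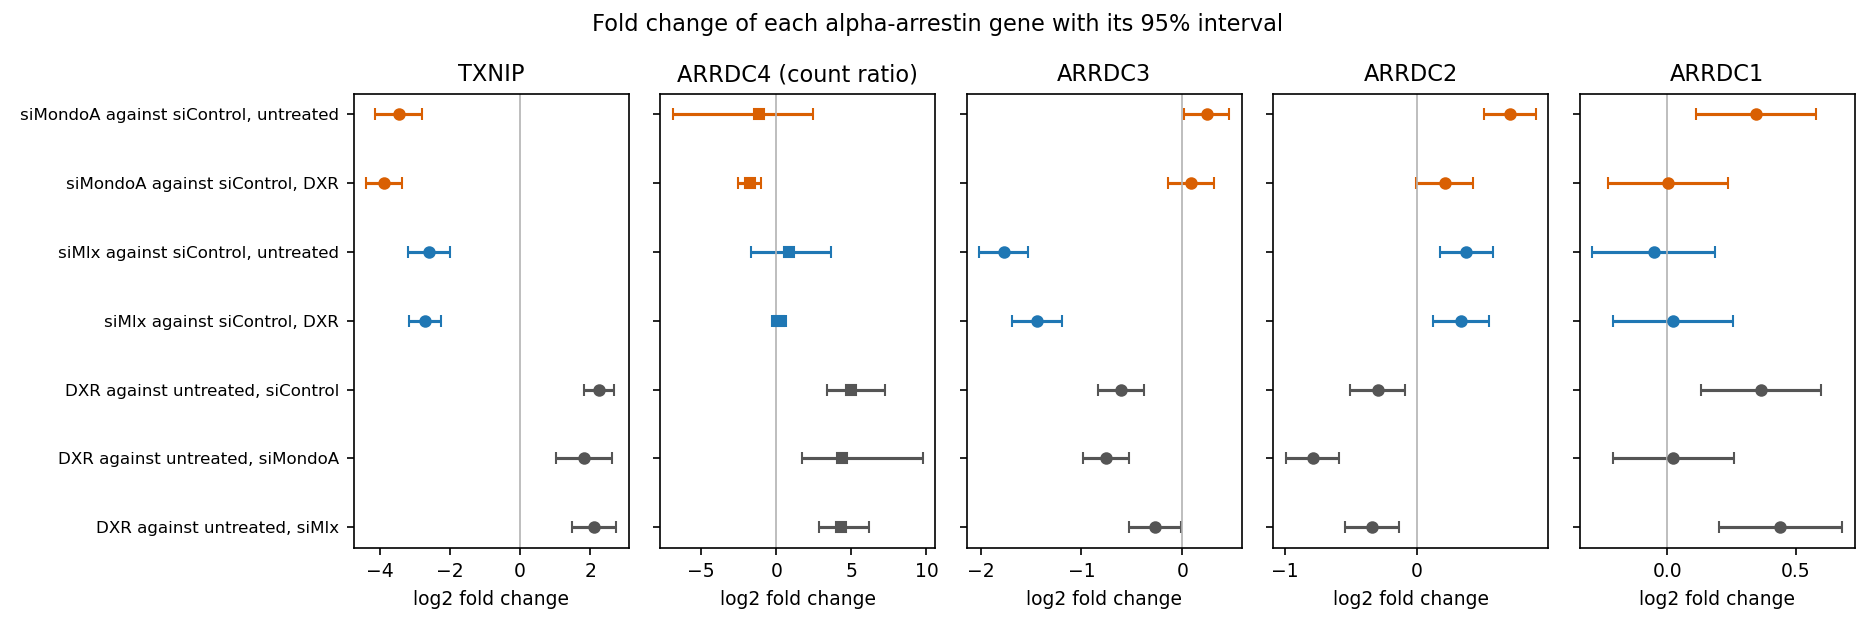
Log2 fold change of each alpha-arrestin gene in 7 comparisons with its 95% interval, from edgeR's fit (circles) or, for ARRDC4, from summed counts with an exact interval that covers counting error only (squares); each panel has its own axis. TXNIP falls with both siRNAs, ARRDC3 falls with siMlx (-1.77 and -1.44) but not with siMondoA (0.24 and 0.09), and DXR raises TXNIP under all 3 siRNAs. ARRDC4 counts are also higher with DXR under all 3 siRNAs, with siMondoA at 20 counts against 1. That gene passed the low-count filter only through its DXR groups.

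Counted over the 5 members, all of which passed the low-count filter, 3 were called with siMondoA in untreated cells (ARRDC1 and ARRDC2 higher, TXNIP lower). There 46.6% of all genes were called. In edgeR with the replicate number as a block ARRDC3 was called higher as well (adjusted p = 0.045). With siMlx 3 were called (ARRDC2 higher, TXNIP and ARRDC3 lower) against 47.9% of all genes. In DXR cells siMondoA gave 2 calls (TXNIP and ARRDC4 lower) against 24.8%, and siMlx gave 3 (ARRDC2 higher, TXNIP and ARRDC3 lower) against 30.2%. DXR gave 5 calls with siControl (TXNIP, ARRDC1 and ARRDC4 higher, ARRDC2 and ARRDC3 lower) against 56.7%. It gave 4 with siMondoA against 54.2% and 4 with siMlx against 62.1%. ARRDC4 is in each of these DXR counts. It passed the filter only through DXR groups, where it was high, so its DXR calls were favoured by the filter. Between the knockdowns 3 members differed in untreated cells (58.9% of all genes) and 3 in DXR cells (39%). The interaction with DXR was called for 1 member with siMondoA (10.1% of all genes) and for 0 with siMlx (12.2%). For siMlx none had an unadjusted p under 0.05, DESeq2 called 0 and edgeR without the low-count filter called ARRDC3. With calls this common among all genes, these counts do not set the members apart, and the members differ in direction and size. The median change of all genes lay between -0.02 and 0.02 in these comparisons.

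Per length, in the deposited RPKM, ARRDC3 was the most abundant member in untreated siControl cells at 26.2 ± 1.55 (SD, n = 3), followed by ARRDC1 at 5.14 ± 0.212, TXNIP at 4.58 ± 1.39, ARRDC2 at 3.15 ± 0.196 and ARRDC4 at 0.00841 ± 0.0146. The ARRDC1 and TXNIP libraries overlapped. With DXR TXNIP reached 20.5 ± 3.07 RPKM and overlapped ARRDC3 at 16.2 ± 1.76. The share of TXNIP in the summed RPKM of the 5 members was 11.7% ± 3.21 in untreated and 44.9% ± 5.11 in DXR siControl cells. With siMlx it was 4.22% ± 1.56 and 16.2% ± 4.5, and with siMondoA 0.953% ± 0.188 and 5.05% ± 0.683. ARRDC3 held 67.1% of the sum in untreated siControl cells, 71.9% with siMondoA and 43.7% with siMlx. The sum itself was 39.1 ± 1.83 RPKM with siControl, 17.8 ± 1.72 with siMlx and 44.0 ± 1.22 with siMondoA in untreated cells, and 45.6 ± 2.77, 18.5 ± 2.1 and 27.9 ± 0.813 in DXR cells. These sums are descriptions and were not tested. RPKM carry no TMM scaling, so untreated and DXR groups can differ otherwise than in CPM. ARRDC1 averaged 6.69 RPKM in untreated and 6.26 in DXR siMondoA cells, but 19.3 and 19.6 CPM after TMM.

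**Figure D4:**
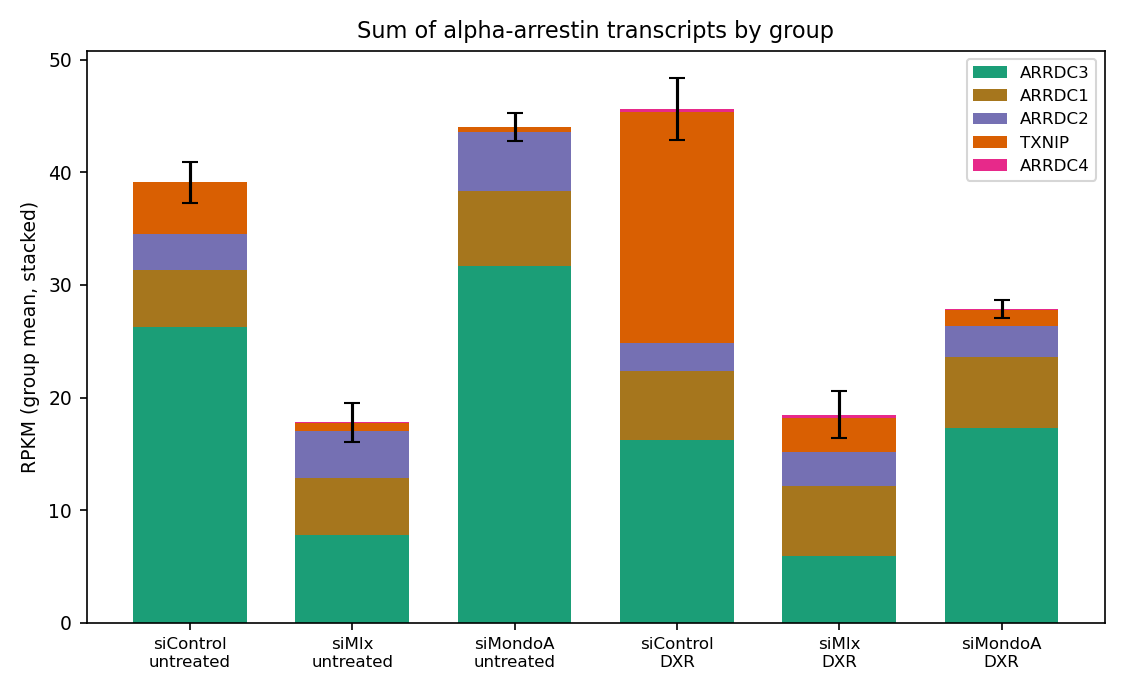
Stacked mean RPKM of the 5 alpha-arrestin genes in each group of 3 libraries, with the SD of the summed value. TXNIP makes up 44.9% of the sum in DXR siControl cells and 0.953% in untreated siMondoA cells, and both siMlx groups have the lowest sums, at 17.8 and 18.5 RPKM.

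Across the 18 libraries, which share the 6 groups, the log2 levels of the members followed different patterns. Pearson's r was -0.84 between TXNIP and ARRDC2, 0.61 between TXNIP and ARRDC4 and -0.01 between TXNIP and ARRDC3. Among 10097 genes with a mean of at least 5 CPM, the genes most like TXNIP by Pearson's r over the libraries were ARF3 (0.966), MAP2K1 (0.958), SAMD8 (0.947), DNAJC6 (0.946) and RNF152 (0.94). ARF3 encodes a small GTPase of the Golgi, MAP2K1 the kinase MEK1, SAMD8 a sphingolipid enzyme, DNAJC6 the clathrin-uncoating auxilin and RNF152 a lysosomal ubiquitin ligase. Their changes were smaller than that of TXNIP. DNAJC6, the widest of the 5, averaged 16.1 CPM in untreated siControl cells, 5.53 with siMlx and 3.69 with siMondoA, and 27.9, 17.2 and 7.58 CPM with DXR. For ARRDC3 the genes were SPTLC3 (0.983), KIAA0196 (0.976), RYBP (0.971), KCNK2 (0.97) and QRSL1 (0.97). SPTLC3, a subunit of serine palmitoyltransferase, averaged 38.2, 4.29 and 47.2 CPM in untreated siControl, siMlx and siMondoA cells and 15.4, 4.45 and 18.3 CPM with DXR. By Spearman's correlation or over group means, 3 of the 5 genes for TXNIP and 1 of the 5 for ARRDC3 were again among the nearest 5. Likeness here is a description.

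**Figure D5:**
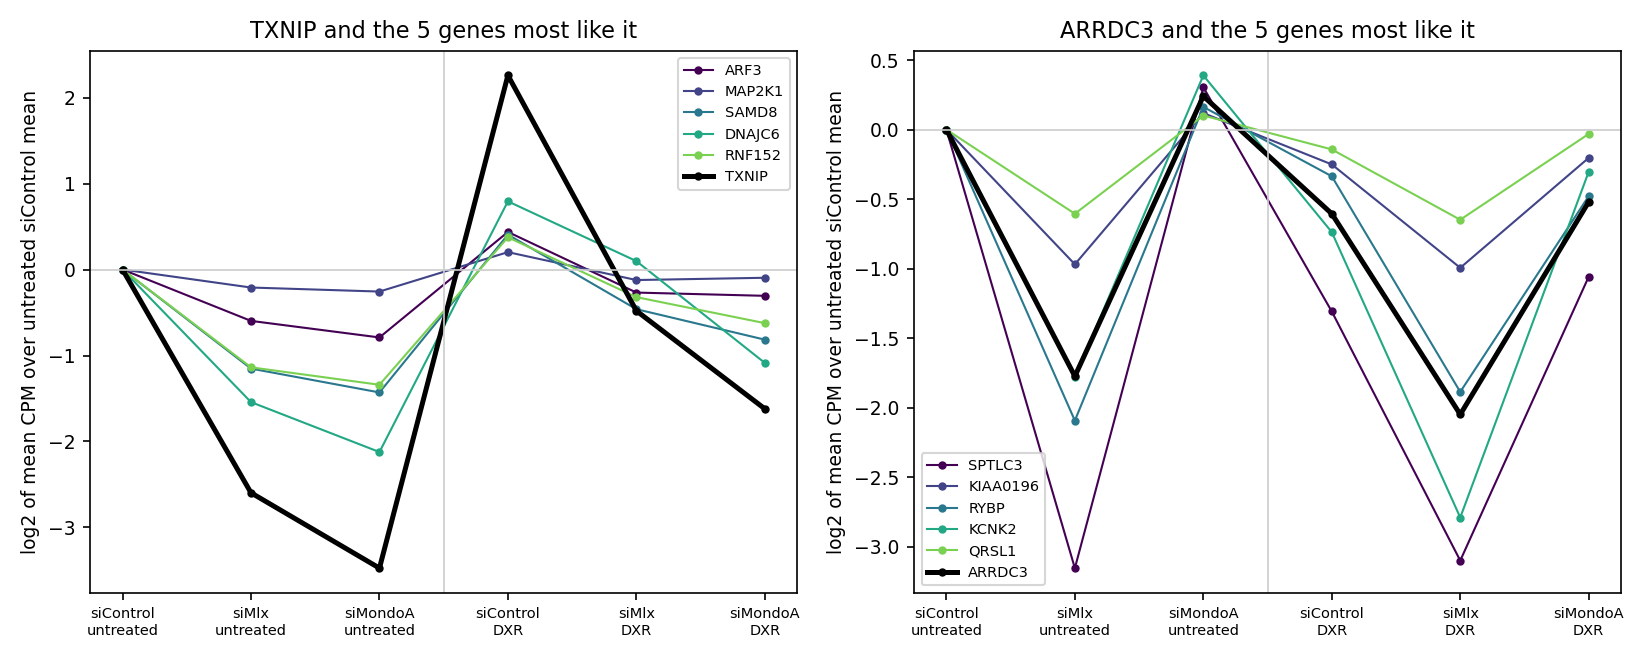
Log2 of the mean CPM in each group over the untreated siControl mean, for TXNIP (left) and ARRDC3 (right, both thick lines) and the 5 genes most like each by Pearson's r over 18 libraries. The TXNIP-like genes are low in all knockdown groups of a condition, whereas the ARRDC3-like genes are lowest in the siMlx group of each condition.

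Other genes on which MondoA or its relative ChREBP is known to act formed a list of 16, of which 10 were tested. With siMondoA in untreated cells 3 of the 10 fell and none rose, where 46.6% of all genes were called in either direction: KLF11, a repressor induced by TGF-beta, by 1.15, the glycolytic enzyme HK2 by 0.33 and KLF10 by 0.20 (adjusted p = 1.39e-05, 0.00996 and 0.0452). The median of the 10 was -0.05. With siMlx in untreated cells 3 rose, among them PFKFB3 (0.51) and HK2 (0.43), and 2 fell (47.9% of all genes called). In DXR cells 2 fell with siMondoA, PFKFB3 by 0.26 and ACACA by 0.18 (24.8% of all genes called), and 4 with siMlx (30.2%), of which ELOVL6, a fatty acid elongase, fell by 0.56. None rose with either siRNA in DXR cells. Genes whose 250-base window held the paired half-sites in the same orientation were also read out. Windows were labelled with current gene symbols, so tested genes listed under an older name may be missing from these counts. The counts cover 9 genes with a pair and 9816 without, of 13676 tested. Of 9 such genes tested besides the alpha-arrestins, 1 fell with siMondoA in untreated cells (11.1%), against 24.8% of the 9816 genes without a pair, and 1 rose. The same gene fell in DXR cells (11.1%, against 14.8%). It was GFPT1, the first enzyme of the hexosamine pathway, at -0.87 (adjusted p = 4.25e-10) and -0.68 (adjusted p = 5.35e-08), named after its values were seen. With siMlx 3 of the 9 fell and 3 rose in untreated cells (33.3% lower, against 24.3% of genes without a pair), and 2 fell and 2 rose in DXR cells (22.2% lower, against 17.3%). With DXR in siControl cells 5 of the 9 rose and 0 fell, where 28.3% of genes without a pair rose and 30.6% fell. Of genes with a perfect E-box 26.2% fell with siMondoA in untreated cells, against 24.6% without, and 25.3% fell with siMlx, against 24.2%. The shares that rose were 24.4% against 24.3% with siMondoA and 28.2% against 25.6% with siMlx. In DXR cells 15.2% fell with siMondoA, against 14.7%, and 20.1% with siMlx, against 17%. The shares that rose there were 10.9% against 11.6% and 16.2% against 14.6%.

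Of the NEDD4-family ligases that alpha-arrestins recruit, 8 of 9 were tested. DXR changed 7 of the 8 with siControl, where 56.7% of all genes were called. It raised 4, led by SMURF2 (log2 0.96, adjusted p = 3.87e-09) and NEDD4L (0.81, adjusted p = 1.3e-10), and lowered 3, WWP2 by 0.30, NEDD4 by 0.25 and WWP1 by 0.25. With siMondoA in untreated cells 3 rose (WWP2 by 0.59, HECW2 by 0.46, ITCH by 0.16) and 2 fell (NEDD4 by 0.49, SMURF2 by 0.33), against 46.6% of all genes called. With siMlx in untreated cells 3 rose, SMURF2 most (0.77), and 3 fell (WWP1 by 0.92, HECW2 by 0.84, NEDD4 by 0.48), against 47.9%. In DXR cells 2 rose and 3 fell with siMondoA (24.8% of all genes called), and 2 rose and 3 fell with siMlx (30.2%). The membrane adaptors NDFIP1 and NDFIP2, which recruit the same ligases, both rose with DXR in siControl cells, by 0.27 and 0.24.

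Among 7 partners and cargo of TXNIP, 6 were tested. The glucose transporter SLC2A3 rose by 0.95 with siMondoA (adjusted p = 4.01e-10) and by 0.58 with siMlx (adjusted p = 3.76e-07) in untreated cells, and in DXR cells by 0.30 and 0.85. SLC2A1, the ubiquitous glucose transporter, rose by 0.31 with siMondoA (adjusted p = 0.00514) and fell by 0.24 with siMlx (adjusted p = 0.0262) in untreated cells. TXN, the thioredoxin that TXNIP binds, fell by 0.51 with DXR in siControl cells (adjusted p = 2.23e-07) while TXNIP rose. All 9 partners and cargo of ARRDC1, ARRDC3 and ARRDC4 were tested. With siMlx in untreated cells 7 fell and none rose (47.9% of all genes called), among them the thrombin receptor F2R by 0.73, the ESCRT adaptor PDCD6IP by 0.41 and integrin ITGB4 by 0.73. In DXR cells siMlx lowered 2 of the 9, F2R by 0.32 and PDCD6IP by 0.18, and raised none (30.2%). With siMondoA in untreated cells 5 fell and 3 rose (46.6%), with VPS4B at -0.77 and ITGB4 at 1.06. In DXR cells 4 fell with siMondoA and 1 rose (24.8%), with VPS4B at -0.71, while ITGB4 was at 0.18 (adjusted p = 0.491). For ITGB4 the interaction of siMondoA with DXR was -0.88 (adjusted p = 0.0477). DXR raised 2 and lowered 2 with siControl (56.7%), ITGB4 by 1.91 (adjusted p = 1.3e-07) against F2R at -0.30.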

How the data were processed

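Per the submitters' processing notes, the authors used bcl2fastq, TopHat2 2.1.1 and GRCh38. The sources used here do not give the read counter, the annotation or whether counting used strand. Libraries were TruSeq Stranded mRNA, per the labels' protocols. The authors deposited whole-number counts per gene and RPKM (reads scaled by gene length and depth), which matched the counts. Counts were fitted in edgeR 4.0.16 (R 4.3.3) for all 18 libraries with 1 mean per group, after filterByExpr by group (13676 of 33121 genes) and TMM scaling. Contrasts were tested by quasi-likelihood, two-sided, with p adjusted by Benjamini-Hochberg over all genes tested and a threshold of 0.05. There were 12 residual degrees of freedom and the biological coefficient of variation was 7.42%. The fit was also run on simulated data with 200 genes changed and the same dispersion for every gene. That setting is simpler than these data, and no result here rests on it. ARRDC4 was also given as summed counts with exact intervals, which cover counting error only. Levels within a gene are CPM and levels between genes RPKM. Total counts ran from 15503423 to 29219280 per library. No pair of replicates agreed within sampling noise.

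The members, gene lists and tests were chosen with earlier results of these data known. The text names the 5 members, the other arrestins, MLX and MLXIP, the 5 genes most like TXNIP and ARRDC3, and members of each list by smallest p, with others named after their values were seen. The correlation of deviations between same-numbered replicates was read as a sign of pairing where every value passed 0.1. This held for siMondoA against siControl in untreated cells (0.101 to 0.33) and DXR cells (0.175 to 0.274). It also held in DXR cells for siMlx against siControl (0.17 to 0.277) and for siMondoA against siMlx (0.167 to 0.256). For siMlx against siControl in untreated cells 2 values passed (0.0515 to 0.245, against -0.234 to 0.0582 between other replicates). The library names carry the same number tags in each group, in the order of the replicate numbers, and their meaning is not given. The main fit used no pairing in any comparison, so its p-values ignore any pairing, and the replicate block was fitted as an alternative. Alternatives were RLE and upper-quartile scaling, DESeq2 1.42.0, all genes kept, genes with 1 CPM in 3 libraries, the compared groups alone, the replicate block, limma 3.58.1 on log2 RPKM with a pseudocount of 0.1 or 0.01, and leaving out each library.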

Additional observations from a re-analysis of the deposited data

Results flagged for a closer look

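ARRDC2 is listed because its response to DXR differed between siRNAs by the test of the difference itself. The interaction of siMondoA with DXR was -0.493 on the log2 scale (SE 0.14, adjusted p = 0.0301 by edgeR's quasi-likelihood test), with a change on DXR of -0.79 with siMondoA and -0.30 with siControl. All 3 DXR libraries were below all 3 untreated libraries under both siRNAs. The call was lost in 8 of its alternatives, and the direction was the same in all of them.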

How the results depend on the processing

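Of 880 alternative values for the members, 804 kept their direction and side of the threshold, 29 lost the call, 18 gained one and 29 changed sign without being called. TXNIP kept its calls for each siRNA against siControl and for DXR under each siRNA in all 15 alternatives of each. The number of members called with siMondoA in DXR cells was 1 with limma on log2(RPKM + 0.01) and ranged from 1 to 2 with a library left out. For the interaction of siMondoA with DXR it was 0 without the low-count filter and in the compared groups alone, and ranged from 0 to 1 with a library left out. For the interaction of siMlx it was 1 without the low-count filter. The nearest genes shared with the main 5 were 3 for TXNIP and 1 for ARRDC3, by Spearman or by group means. The replicate block also gave calls to ARRDC3 for DXR with siMlx (adjusted p = 0.0411) and to TXNIP for siMondoA against siMlx in untreated cells (0.0478), and with ARRDC3 for siMondoA in untreated cells (0.045) these were its only changes of call; where same-numbered libraries did not deviate together, this is no evidence of pairing.

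Changes of sign were, for ARRDC1 with siMondoA in DXR cells, -0.00162 in the compared groups alone, -0.000833 with the replicate block, -0.00717 and -0.00754 with limma on RPKM. For ARRDC1 with DXR under siMondoA it was -0.11 with limma at either pseudocount. For ARRDC4 with siMlx in DXR cells it was -0.0269 with limma on log2(RPKM + 0.01). With a library left out, ARRDC1 ranged from -0.20 to 0.11 for siMondoA in DXR cells, from -0.0090 to 0.0537 for siMlx in DXR cells, from -0.18 to 0.13 for DXR with siMondoA and from -0.22 to 0.089 for siMondoA against siMlx with DXR. ARRDC4 ranged from -2.87 to 1.89 for siMondoA and from -0.49 to 3.60 for siMlx in untreated cells, from -0.15 to 0.58 for siMlx in DXR cells, and from -3.63 to 1.13 and from -3.42 to 0.67 for the interactions of siMondoA and siMlx. The siMlx interaction ranged from -0.47 to 0.21 for TXNIP and from -0.0848 to 0.0298 for ARRDC2. The cause of these changes was not tested.

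On RPKM without TMM the median change with DXR moved to between -0.10 and -0.13, and the higher share of called genes from 49.5% to 37.9% (siControl), 48.4% to 34.2% (siMondoA) and 49.8% to 36.9% (siMlx); for the siMlx interaction it moved from 52.5% to 40.2%, and for the siMondoA interaction from 57.7% to 45.4% with upper-quartile scaling. That interaction had 1384 calls, or 918 without untreated siMondoA replicate 1. The 3 counts of ARRDC4 in untreated siControl cells came from 1 library, without which its fitted rise with DXR was 7.59. Depth limits ARRDC4 in untreated cells, where a group's floor is 3 counts.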

Other observations

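The beta-arrestins, which share the arrestin fold and switch off activated receptors, moved differently from each other. ARRB1 stood at 6.23 ± 0.632 CPM (SD, n = 3) in untreated siControl cells, 2.11 ± 0.381 with siMlx and 2.67 ± 0.173 with siMondoA. It fell by 1.57 with siMlx (adjusted p = 1.73e-07) and by 1.22 with siMondoA (adjusted p = 3e-06) on the log2 scale, with no overlap. In DXR cells it fell by 0.65 with siMondoA (adjusted p = 0.00335), and the siMlx difference was -0.39 (adjusted p = 0.0528). The siMlx effect on ARRB1 differed between conditions (interaction 1.18, SE 0.223, adjusted p = 0.00153). ARRB2 did not pass the test with either siRNA in either condition and fell with DXR under each siRNA, by 0.96 with siControl, 1.00 with siMondoA and 1.23 with siMlx. ARRDC5, an alpha-arrestin outside the chosen members, had 1 count in all 18 libraries.

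Genes linked to FOXO factors and starvation, the setting in which ARRDC3 and TXNIP are often described, formed a list of 12, of which 10 were tested. With DXR in siControl cells 8 rose and 1 fell, where 56.7% of all genes were called, with a median of 0.83 against -0.01 for all genes. SESN1 rose by 1.80, PIK3IP1 by 1.55, GADD45A by 1.48 and CITED2 by 1.01, and SESN1 and GADD45A are also known p53 targets. In the same comparison TXNIP was at 2.25, whereas ARRDC3 was at -0.60 and so went against most of the list. Of 7 glucocorticoid-induced genes 6 were tested. DXR raised 3 with siControl, among them SGK1 (0.56) and TSC22D3 (0.47), and lowered 2 (against the same 56.7%), with FKBP5 at -1.03. FKBP5 also fell by 1.88 with siMondoA in untreated cells and rose by 0.34 with siMlx.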
